A study of Homo sapiens with 8 samples.

Results

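The ATF4 axis of the integrated stress response was described here by 10 genes, *ATF4*, *ATF5*, *ATF3*, *DDIT3*, *TRIB3*, *PPP1R15A*, *CHAC1*, *ASNS*, *SESN2* and *DDIT4*. They were chosen by name, with earlier results of these data known, and each symbol matched 1 of the 57815 gene identifiers of the expression files. The study compared 2 established human lung adenocarcinoma cell lines, ABC1 and HCC4006, neither of which carried a mutation in the *KEAP1* or *NRF2* gene according to the labels. Cells of each line received the vehicle dimethyl sulfoxide (DMSO) or 100 μM diethylmaleate (DEM), an electrophile that inhibits KEAP1 and thereby raises NRF2, and RNA was taken after 16 h. Each of the 4 groups held 2 libraries, numbered 0 and 1 in the labels and called biological duplicates in the methods, so there were 8 libraries of polyA-selected RNA in all. Both lines grew in the same low-glucose medium with serum, and each condition was studied in these lines only.

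In the integrated stress response, kinases that sense amino acid shortage, unfolded protein, haem deficiency or double-stranded RNA phosphorylate the initiation factor eIF2. Most translation then slows, whereas translation of the *ATF4* mRNA increases. The ATF4 protein is a basic leucine zipper transcription factor that pairs with C/EBP proteins and other partners and induces genes for amino acid supply, redox balance and, when stress lasts, cell death. The response limits itself, since PPP1R15A (GADD34) brings a phosphatase to eIF2 and TRIB3 binds and restrains ATF4. The levels given here are of mRNA, and ATF4 is controlled largely through its translation, so its protein was not measured by these data.

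The promoters of *CHAC1*, *ASNS* and *PPP1R15A* are shown because they carry, in the 250 bases before the RefSeq start (GRCh38.p14 coordinates), the letters of elements to which ATF4, C/EBP or related factors are known to bind. Each is written 5′ to 3′ on the gene's strand with the matches in capitals. For *CHAC1* (chr15:40953221-40953470, plus strand) the capitals mark a C/EBP-ATF response element. For *ASNS* (chr7:97872409-97872658, minus strand) they mark the amino acid response element described for this promoter, and for *PPP1R15A* (chr19:48872171-48872420, plus strand) they mark, in order, a pair of antioxidant response element cores, the first of them on the minus strand, and a cyclic AMP response element.
CHAC1: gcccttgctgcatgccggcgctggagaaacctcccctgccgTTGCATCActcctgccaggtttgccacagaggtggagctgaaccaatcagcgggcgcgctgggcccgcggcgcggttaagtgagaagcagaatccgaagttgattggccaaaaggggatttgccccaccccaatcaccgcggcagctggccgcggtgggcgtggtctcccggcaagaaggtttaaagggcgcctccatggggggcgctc
ASNS: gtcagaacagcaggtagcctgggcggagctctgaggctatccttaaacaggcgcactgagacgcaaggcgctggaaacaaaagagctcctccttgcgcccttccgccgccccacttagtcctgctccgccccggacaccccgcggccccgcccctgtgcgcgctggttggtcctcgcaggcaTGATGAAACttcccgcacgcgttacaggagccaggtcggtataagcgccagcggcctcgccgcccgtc
PPP1R15A: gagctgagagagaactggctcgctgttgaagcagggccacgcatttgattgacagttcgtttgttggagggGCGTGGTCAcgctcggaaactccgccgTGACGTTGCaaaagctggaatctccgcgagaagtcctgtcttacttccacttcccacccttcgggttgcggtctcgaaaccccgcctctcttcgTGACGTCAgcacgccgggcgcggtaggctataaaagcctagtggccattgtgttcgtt

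The windows searched reached from 250 bases before to 50 bases after each start, and the 10 genes had 18 of them among 35116 in the table. On either strand, the C/EBP-ATF response element TTGCNTCA stood in 3.22% of all windows and the amino acid response element TGATGAAAC in 0.225%. The cyclic AMP response element TGACGTCA stood in 1.85% and the antioxidant response element core TGACNNNGC in 13.3%. In *CHAC1* the element lay from base -209 to base -202 relative to the start, and in *ASNS* from -68 to -60. In *PPP1R15A* the cores lay from -179 to -171 and from -152 to -144, and the cyclic AMP response element from -58 to -51. *TRIB3* was the only other of the 10 genes with a match, an antioxidant response element core on the minus strand. A match describes letters and not binding, and no match says only that these letters were not in the windows.

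The values are FPKM, the fragments of a transcript scaled to its length and to the mapped fragments of the library, so levels can be set side by side between genes. The sums of FPKM over a library differed by at most 1.18 times, and 12515 to 13573 genes reached 1 FPKM. Replicates correlated with a Pearson's r of 0.992 to 0.995 on log2(FPKM + 1) across all 57815 identifiers. Only 26927 to 28186 of these had unequal values in the 2 libraries of a group, so r includes many ties. The FPKM values hold no counts, and depth was seen only through the authors' base means, which are scaled counts averaged over a line and totalled 13786938 in ABC1 and 13957320 in HCC4006, so no interval of counting error is given. Of 8 known NRF2 target genes, all 8 were called higher with DEM in both lines, with log2 fold changes of 1.59 to 3.54 in ABC1 and 0.89 to 3.09 in HCC4006. In ABC1 this count was 4 without vehicle replicate 0, 5 without vehicle replicate 1, and 7 without either DEM library. The 5 epithelial markers *EPCAM*, *CDH1*, *KRT8*, *KRT18* and *KRT19* were present in both lines, whereas the 4 lung markers were all under 1 FPKM in ABC1. In HCC4006 the lung lineage factor *NKX2-1* reached 42.4 to 47.1 FPKM and the protease *NAPSA* 12.9 to 16.0 FPKM, and the surfactant genes *SFTPB* and *SFTPC* stayed under 1 FPKM. Of the immune markers, *CD68* stood at 89.3 to 102 FPKM in HCC4006 and *PTPRC* and *CD3E* were near 0. Of the fibroblast markers 1 of 4, *COL1A1*, reached 1 FPKM, and neither of the 2 endothelial markers matched did. The summed FPKM of the epithelial markers was 4948 and 5799 in the vehicle libraries of ABC1 and 3655 and 4071 in its DEM libraries. In HCC4006 the sum was between 2338 and 2472 with vehicle and between 1983 and 2019 with DEM. The sum was thus lower with DEM in both lines, and its part in the results was not tested. It does not describe each marker. Over the ABC1 libraries *EPCAM* ranged only from 388 to 401 FPKM. *KRT8*, the highest of the markers, ranged there from 1623 to 2906 FPKM, *KRT18* from 817 to 1423, *KRT19* from 694 to 932 and *CDH1* from 92.4 to 146. In bulk RNA, a change in the kinds of cells present and a change in RNA per cell cannot be told apart.

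The effect of DEM on each line was tested by limma from log2(FPKM + 1) values as a log2 fold change (log2FC) with its standard error (SE). Benjamini-Hochberg adjustment ran over all genes tested, every adjusted p below is of this kind, and those under 0.05 are named as called. All 10 genes stood higher with DEM in both lines, in that both DEM libraries lay above both vehicle libraries. The same was true of 25.5% of all genes tested in ABC1 and 29.3% in HCC4006. In ABC1, 4 of the 10 were called higher and 0 lower, where 0.768% of all genes were called higher and 0.435% lower. In HCC4006, 7 of the 10 were called higher and 0 lower, where 8.45% of all genes were called higher and 10.7% lower. Before adjustment, 9 of the 10 in ABC1 and 8 in HCC4006 had a p under 0.05, as had 2771 of the 12635 genes tested in ABC1 and 4985 of the 13542 in HCC4006. The median log2FC of the 10 genes was 0.90 in ABC1 and 0.77 in HCC4006, beside -0.02 and -0.03 over all genes tested. *DDIT3*, *TRIB3*, *CHAC1* and *ASNS* were called in both lines, *ATF4*, *ATF3* and *PPP1R15A* in HCC4006 and not in ABC1, and *ATF5*, *SESN2* and *DDIT4* in neither.

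The count in ABC1 depended on the settings of the fit as well as on the libraries that entered it. A model of all 8 libraries, in which both lines share the estimate of the spread, called 8 of the 10 in ABC1, namely all but *ATF5* and *DDIT4*. The share of all genes that this model called in ABC1 is not given, so its counts have no background beside them. Without either vehicle library of ABC1 the count was 0, without DEM replicate 0 it was 1 and without DEM replicate 1 it was 2. Without the mean-variance trend the count was 1, *CHAC1*. With a minimum of 5 FPKM it was 5, with median-of-ratios scaling 6 and with the replicate number as a block 9. Without the expression minimum it was 0 in ABC1 and 3 in HCC4006, namely *ATF3*, *DDIT3* and *TRIB3*. In none of the fits did a log2FC of the 10 genes turn negative in either line.

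**Figure D1:**
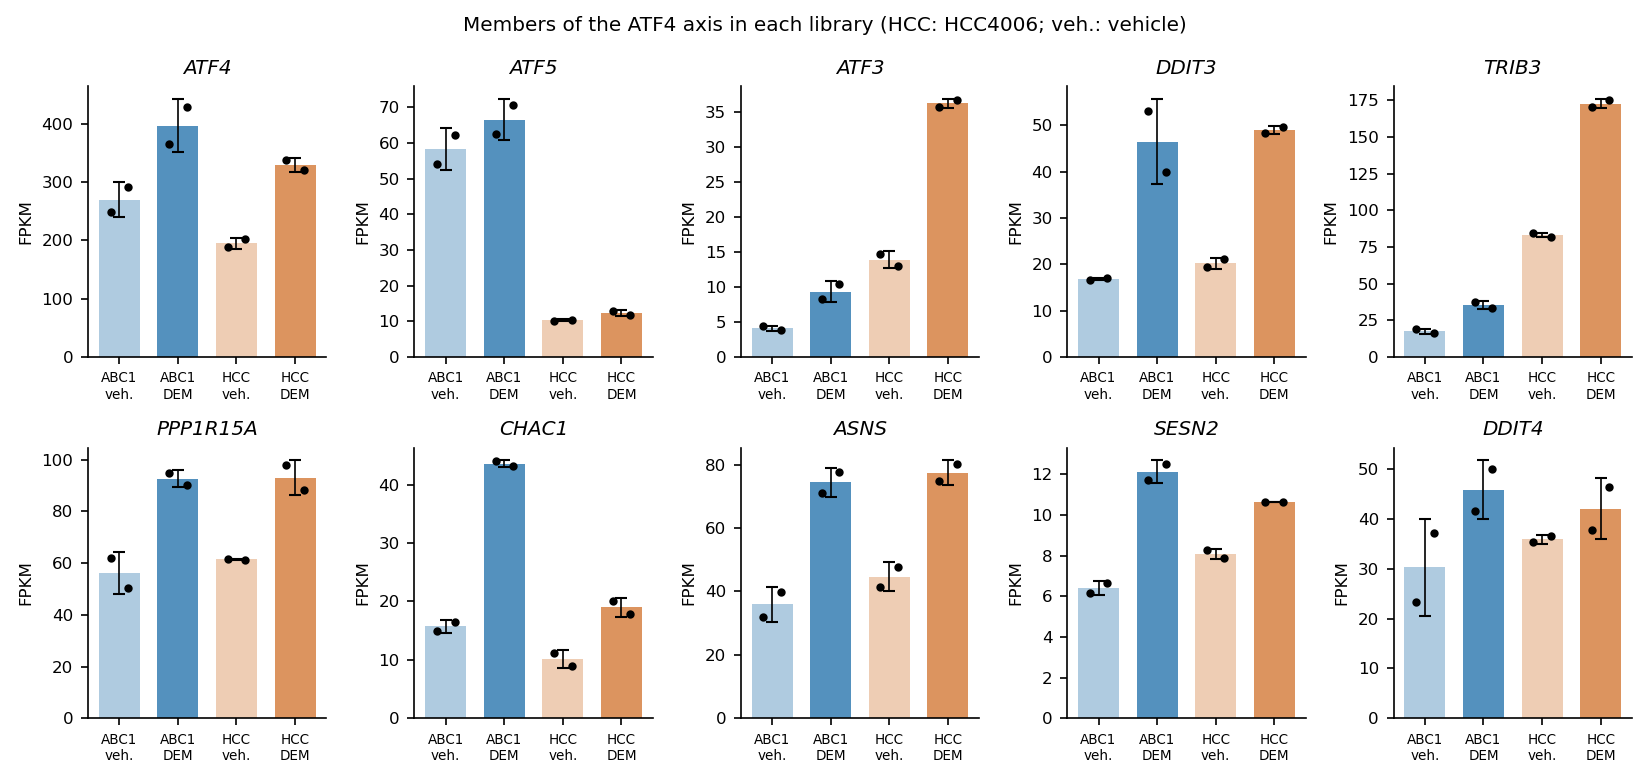
FPKM of the 10 genes (vertical axes, linear from 0) in the vehicle and DEM groups of ABC1 (blue) and HCC4006 (orange, HCC). Bars are means, error bars SD and dots the 2 libraries of each group, and in each panel both DEM dots of a line lie above both of its vehicle dots.

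*ATF4* (ENSG00000128272.10, chr22:39915700-39918688 of GRCh37, plus strand) encodes the central factor of the response and had the highest level of the 10 genes in every group. In ABC1 it stood at 249 and 292 FPKM with vehicle and at 365 and 430 FPKM with DEM. HCC4006 held 188 and 202 FPKM with vehicle and 339 and 322 FPKM with DEM. The 4 groups did not overlap, and their order from the highest was ABC1 with DEM, HCC4006 with DEM, ABC1 with vehicle and HCC4006 with vehicle. In HCC4006 *ATF4* rose by 0.76 on the log2 scale (SE 0.07, adjusted p = 0.00285). In ABC1 the log2FC was 0.55 (SE 0.16, adjusted p = 0.132), which did not pass. Processed pseudogenes of *ATF4* that the files list reached at most 0.693 FPKM.

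*ATF3* (ENSG00000162772.12, chr1:212738676-212794119, plus strand) encodes a stress-induced factor of the same family that acts downstream of ATF4. With vehicle it stood at 4.34 and 3.83 FPKM in ABC1 and at 14.8 and 13.01 FPKM in HCC4006. With DEM it stood at 8.25 and 10.4 FPKM in ABC1 and at 35.8 and 36.7 FPKM in HCC4006. HCC4006 with vehicle therefore lay above ABC1 with DEM, and no groups overlapped. *ATF3* rose in HCC4006 with a log2FC of 1.33 (SE 0.09, adjusted p = 0.00163), the largest of the 10 genes there. The log2FC in ABC1 was 1.02 (SE 0.17, adjusted p = 0.0614) and did not pass, although it did with median-of-ratios scaling.

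*DDIT3* (ENSG00000175197.6, chr12:57910371-57915520, minus strand) encodes CHOP, a C/EBP family protein linked to cell death under lasting stress. It stood at 16.7 and 17.1 FPKM with vehicle and at 53.0 and 39.9 FPKM with DEM in ABC1. In HCC4006 the vehicle libraries held 19.4 and 21.1 FPKM and the DEM libraries 48.4 and 49.6 FPKM. The DEM groups of the lines overlapped, and the DEM libraries of ABC1 were the furthest apart. *DDIT3* rose by 1.40 on the log2 scale in ABC1 (SE 0.17, adjusted p = 0.0365) and by 1.24 in HCC4006 (SE 0.08, adjusted p = 0.00136). The call in ABC1 was lost without vehicle replicate 0, vehicle replicate 1 or DEM replicate 0, where its log2FC stayed between 1.20 and 1.60. *DDIT3* overlaps the opposite-strand genes *MARS1*, at 128 to 371 FPKM, and *MBD6*, at 24.3 to 53.7 FPKM, and whether the counting used strand is not given in the sources used here. *MARS1*, which encodes a tRNA synthetase, had log2FCs of 0.33 in ABC1 and 0.10 in HCC4006, neither of which passed.

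*ATF5* (ENSG00000169136.4, chr19:50431959-50437192, plus strand) encodes a factor under translational control like ATF4. It stood at 54.2 and 62.38 FPKM with vehicle and at 62.42 and 70.7 FPKM with DEM in ABC1, so that the groups were separated by a margin far smaller than the gap between replicates. HCC4006 held 10.1 and 10.4 FPKM with vehicle and 12.9 and 11.8 FPKM with DEM. Its log2FCs, 0.19 in ABC1 (SE 0.14, adjusted p = 0.471) and 0.25 in HCC4006 (SE 0.10, adjusted p = 0.137), did not pass. The first bases of *ATF5* overlap those of the opposite-strand gene *NUP62*, which was at 17.6 to 141 FPKM.

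*TRIB3* (ENSG00000101255.6, chr20:343479-378203, plus strand) encodes the pseudokinase that restrains ATF4. In ABC1 it stood at 18.8 and 16.4 FPKM with vehicle and at 37.6 and 33.6 FPKM with DEM. HCC4006 cells held 84.3 and 82.0 FPKM with vehicle and 171 and 175 FPKM with DEM. No groups overlapped, and both groups of HCC4006 lay above both groups of ABC1. *TRIB3* rose by 0.98 on the log2 scale in ABC1 (SE 0.14, adjusted p = 0.0443) and by 1.05 in HCC4006 (SE 0.06, adjusted p = 9.8e-04). Without any single library of ABC1 the call there was lost, at log2FCs of 0.88 to 1.07, whereas in HCC4006 it held in every fit.

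*PPP1R15A* (ENSG00000087074.7, chr19:49375469-49379316, plus strand) encodes the stress-induced subunit of the eIF2 phosphatase. It stood at 61.9 and 50.4 FPKM with vehicle and at 94.98 and 90.3 FPKM with DEM in ABC1, and at 61.6 and 61.3 FPKM with vehicle and 97.8 and 88.4 FPKM with DEM in HCC4006. The lines overlapped under both conditions. In HCC4006 *PPP1R15A* rose by 0.59 on the log2 scale (SE 0.08, adjusted p = 0.00772), a call that was lost without vehicle replicate 1, with an adjusted p of at most 0.0843 over the alternatives. In ABC1 the log2FC was 0.72 (SE 0.14, adjusted p = 0.0771) and did not pass.

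*CHAC1* (ENSG00000128965.7, chr15:41245160-41248710, plus strand), whose promoter is shown above, encodes an enzyme that degrades glutathione. In ABC1 it stood at 15.0 and 16.5 FPKM with vehicle and at 43.97 and 43.2 FPKM with DEM. In HCC4006 it stood at 11.2 and 9.03 FPKM with vehicle and at 20.1 and 17.9 FPKM with DEM. No groups overlapped, and the DEM libraries of ABC1 lay well above all others. *CHAC1* rose in ABC1 with a log2FC of 1.41 (SE 0.12, adjusted p = 0.0186), the largest of the 10 genes there and 71st among the 12635 genes tested. It rose in HCC4006 by 0.85 on the log2 scale (SE 0.13, adjusted p = 0.0116). The call in ABC1 was lost without either vehicle library, and that in HCC4006 without vehicle replicate 1 or DEM replicate 0, with log2FCs of 1.35 to 1.48 and 0.71 to 0.99 over the alternatives.

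*ASNS* (ENSG00000070669.12, chr7:97480989-97501854, minus strand) encodes asparagine synthetase, and its promoter element was used to define the amino acid response. It stood at 31.9 and 39.9 FPKM with vehicle and at 71.1 and 77.6 FPKM with DEM in ABC1. The values in HCC4006 were 41.5 and 47.8 FPKM with vehicle and 74.7 and 80.2 FPKM with DEM. The DEM groups of the lines overlapped, and the vehicle groups did not. *ASNS* rose by 1.04 on the log2 scale in ABC1 (SE 0.15, adjusted p = 0.0482) and by 0.78 in HCC4006 (SE 0.09, adjusted p = 0.00614). Leaving out any single library of ABC1 ended the call there, with log2FCs of 0.88 to 1.19. Pseudogenes of *ASNS* that the files list reached at most 0.0569 FPKM.

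*SESN2* (ENSG00000130766.4, chr1:28586029-28609002, plus strand) encodes a leucine sensor that restrains mTORC1. It stood at 6.18 and 6.65 FPKM with vehicle and at 11.7 and 12.5 FPKM with DEM in ABC1. In HCC4006 it stood at 8.27 and 7.89 FPKM with vehicle and at 10.63 and 10.65 FPKM with DEM. No groups overlapped, and ABC1 was the lower line with vehicle and the higher line with DEM. The log2FC was 0.82 in ABC1 (SE 0.13, adjusted p = 0.0600) and 0.36 in HCC4006 (SE 0.10, adjusted p = 0.0572), neither of which passed, although both did with median-of-ratios scaling.

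*DDIT4* (ENSG00000168209.4, chr10:74033678-74035794, plus strand) encodes REDD1, another inhibitor of mTORC1 signalling. Its vehicle libraries in ABC1 were far apart, at 23.3 and 37.2 FPKM, and its DEM libraries stood at 41.6 and 49.95 FPKM. In HCC4006 it stood at 35.3 and 36.5 FPKM with vehicle and at 37.7 and 46.3 FPKM with DEM. The groups of the lines overlapped under both conditions. The log2FC was 0.61 in ABC1 (SE 0.24, adjusted p = 0.210) and 0.21 in HCC4006 (SE 0.11, adjusted p = 0.220), so that neither passed.

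**Figure D2:**
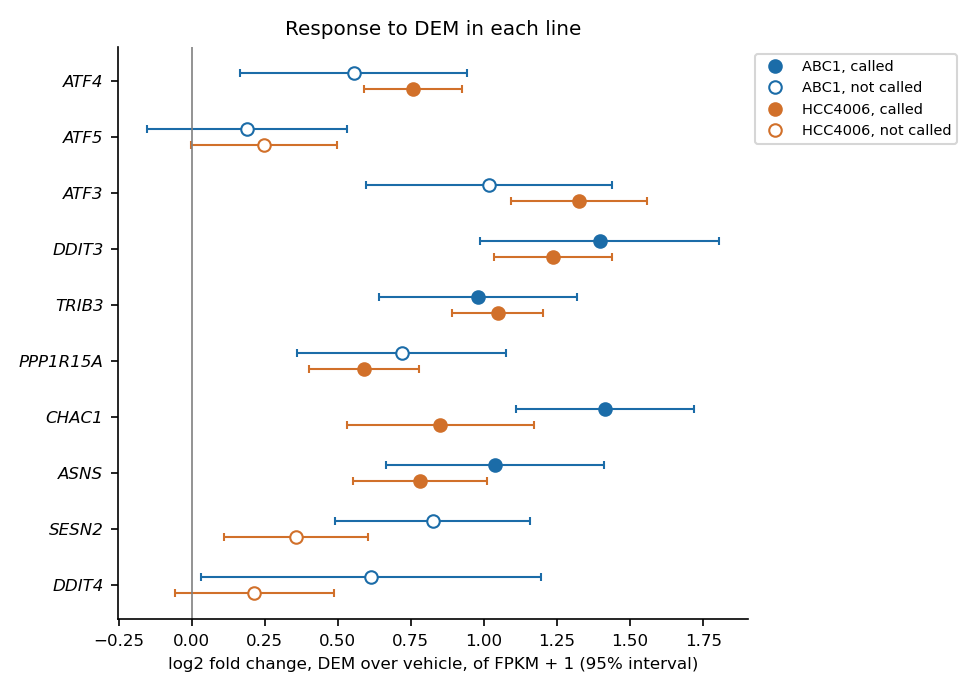
Log2 fold change of FPKM + 1 with DEM over vehicle (horizontal axis) for each of the 10 genes in ABC1 (blue) and HCC4006 (orange), with 95% intervals from limma. Filled points passed an adjusted p of 0.05 and open points did not. The points run from 0.19 for *ATF5* to 1.41 for *CHAC1* in ABC1 and from 0.21 for *DDIT4* to 1.33 for *ATF3* in HCC4006, and the ABC1 intervals are wider for all but *CHAC1*.

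Whether the response to DEM differed between the lines was tested with an interaction term over all 8 libraries. None of the 10 genes was called, and 2 had an unadjusted p under 0.05, where 0.307% of the 13682 genes tested were called higher and 0.329% lower in the response of HCC4006 than in that of ABC1 and 2068 had an unadjusted p under 0.05. The 2 genes were *CHAC1*, whose response in HCC4006 was smaller by a log2 difference of -0.56 (SE 0.18, adjusted p = 0.204), and *SESN2*, with a difference of -0.47 (SE 0.14, adjusted p = 0.192). For *ATF4* the difference was 0.20, with a 95% interval of -0.20 to 0.60, and for *TRIB3* 0.07, with an interval of -0.27 to 0.41. For *ATF3*, called in HCC4006 and not in ABC1, it was 0.31, with an interval of -0.13 to 0.75. The calls made in one line only were thus not shown to differ between the lines.

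The levels of the lines with vehicle were compared in the same model. Of the 10 genes, 3 were called higher and 3 lower in HCC4006 than in ABC1, which is near the background, since 36.8% of all genes tested were called higher and 30.2% lower. *TRIB3* was higher in HCC4006 by 2.18 on the log2 scale (SE 0.10, adjusted p = 1.2e-06), *ATF3* by 1.55 (SE 0.13, adjusted p = 3.0e-05) and *SESN2* by 0.29 (SE 0.10, adjusted p = 0.0328). *ATF5* was lower in HCC4006, with a log2 difference of -2.39 (SE 0.11, adjusted p = 1.3e-06), as was *CHAC1* with -0.60 (SE 0.13, adjusted p = 0.00370) and *ATF4* with -0.46 (SE 0.12, adjusted p = 0.0104). The call of *SESN2* was lost without any of 6 libraries, both vehicle libraries of each line and both DEM libraries of HCC4006, at log2 differences of 0.25 or more. That of *ATF4* was lost without vehicle replicate 1 of ABC1 or vehicle replicate 0 of HCC4006, at log2 differences of -0.35 or below. *DDIT3*, *PPP1R15A*, *ASNS* and *DDIT4* were not called, with log2 differences of 0.25, 0.14, 0.31 and 0.28 in this order.

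**Figure D3:**
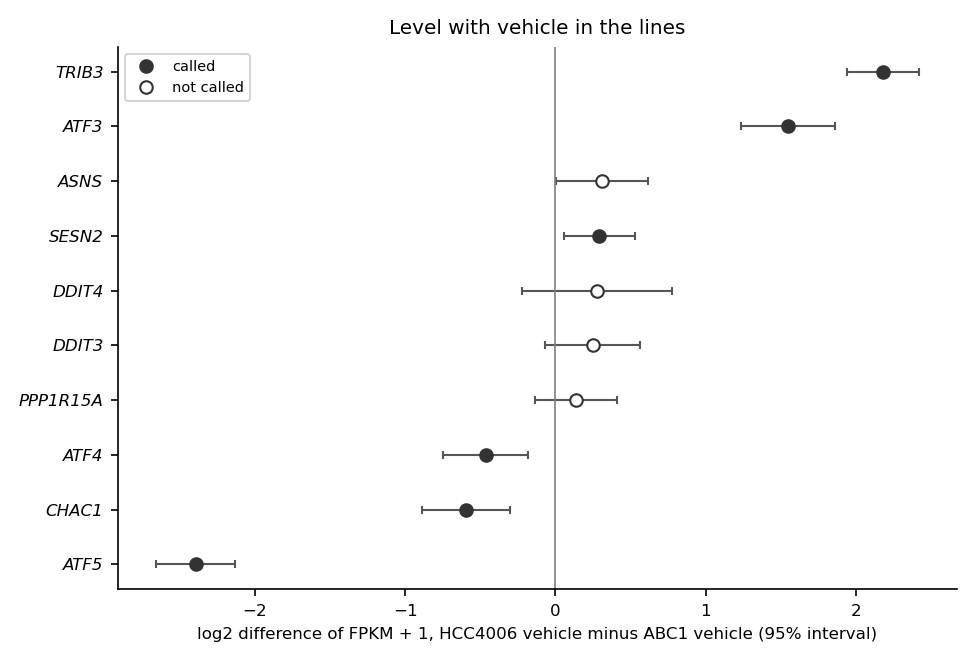
Log2 difference of FPKM + 1 between the vehicle groups, HCC4006 minus ABC1 (horizontal axis), for the 10 genes in order of the difference, with 95% intervals from limma over all 8 libraries. Filled points passed an adjusted p of 0.05, and the values run from -2.39 for *ATF5* to 2.18 for *TRIB3*.

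The order of the genes within a line was read from the same FPKM values. *ATF4* stood first in all 4 groups. *TRIB3* was second in HCC4006 with both vehicle and DEM, at 83.1 ± 1.59 and 173 ± 3.18 FPKM (SD, n = 2), and sixth and eighth of the 10 in ABC1, at 17.6 ± 1.70 and 35.6 ± 2.79 FPKM (SD, n = 2). *ATF5* was second in ABC1 with vehicle at 58.3 ± 5.80 FPKM (SD, n = 2) and eighth in HCC4006 at 10.3 ± 0.249 FPKM (SD, n = 2). *ATF3* and *SESN2* had the lowest mean levels in ABC1 under both conditions, and *SESN2* had the lowest in HCC4006.

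Upstream of ATF4, the 15 genes of the eIF2 kinases, their activators, the eIF2 and eIF2B subunits and the constitutive phosphatase subunit did not move together. In ABC1, 0 were called by limma, and 7 had an unadjusted p under 0.05, as had 2771 of all 12635 genes, whereas the model of all 8 libraries called 2 higher and 3 lower. In HCC4006, 1 was called higher and 4 lower, where 8.45% of all genes tested were called higher and 10.7% lower. The median log2FCs of the 15 genes were -0.02 in ABC1 and -0.06 in HCC4006. The 4 that fell in HCC4006 were *EIF2B5*, *EIF2B1* and *EIF2B2*, which encode subunits of the exchange factor that recharges eIF2, and *DELE1*, which relays mitochondrial stress to an eIF2 kinase. *EIF2B5* fell from 39.4 ± 1.67 to 23.5 ± 5.01 FPKM (SD, n = 2), a log2FC of -0.74 (SE 0.15, adjusted p = 0.0233). *DELE1* fell from 39.1 ± 1.29 to 24.0 ± 3.74 FPKM (SD, n = 2), a log2FC of -0.69 (SE 0.12, adjusted p = 0.0155). *EIF2B1* and *EIF2B2* had log2FCs of -0.60 (adjusted p = 0.0114) and -0.45 (adjusted p = 0.0195). *EIF2S2*, which encodes the beta subunit of eIF2, was the gene called higher, by 0.32 (adjusted p = 0.0334). Without vehicle replicate 0 or vehicle replicate 1 of HCC4006 none of the 4 was called lower, and *EIF2S2* was not called without any single library of HCC4006. None of the kinase genes *EIF2AK1*, *EIF2AK2*, *EIF2AK3* and *EIF2AK4* was called in either line, with log2FCs of 0.12 to 0.45 in ABC1 and -0.07 to 0.22 in HCC4006. The test across genes gives no measure of kinase activity.

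Of the 6 genes for factors that pair with ATF4, 5 were tested. *CEBPB* and *CEBPG*, C/EBP family members that bind C/EBP-ATF elements with ATF4, were called higher in both lines, and *NFE2L2*, which encodes NRF2, in HCC4006. *CEBPD* and *JDP2* were called in neither line, with log2FCs of 0.38 and -0.58 in ABC1 and 0.40 and 0.10 in HCC4006. The model of all 8 libraries called 3 of the 5 higher and 1 lower in ABC1. Of all genes tested, 0.768% were called higher in ABC1 and 8.45% in HCC4006. *CEBPG* rose from 11.3 ± 0.191 to 22.6 ± 0.119 FPKM (SD, n = 2) in ABC1, a log2FC of 0.94 (SE 0.12, adjusted p = 0.0422), and by 0.58 on the log2 scale in HCC4006 (SE 0.09, adjusted p = 0.0121). *CEBPB* rose by 0.89 in ABC1 (SE 0.12, adjusted p = 0.0436) and by 0.74 in HCC4006 (SE 0.09, adjusted p = 0.00719). *NFE2L2* rose by 0.45 in HCC4006 (SE 0.08, adjusted p = 0.0147), and its log2FC in ABC1 was 0.68 (adjusted p = 0.107). Without any single library of ABC1, 0 of these genes were called there, and in HCC4006 1 to 2 were.

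The list of 29 genes for amino acid synthesis, amino acid transport and tRNA charging holds many known ATF4 targets. In ABC1, 28 were tested, 3 were called higher and 0 lower, 25 had a log2FC above 0 and the median was 0.55. In HCC4006, 29 were tested, 21 were called higher and 1 lower, 26 had a log2FC above 0 and the median was 0.43. Over all genes tested, the shares called were 0.768% higher and 0.435% lower in ABC1 and 8.45% higher and 10.7% lower in HCC4006. The median log2FC over all genes was -0.02 in ABC1 and -0.03 in HCC4006. The 3 called in ABC1 were *SLC7A11*, *PSAT1* and *SLC3A2*, and each was also called in HCC4006. *SLC7A11*, which encodes the light chain of the cystine transporter and is a target of NRF2 as well as of ATF4, rose from 7.89 ± 0.104 to 51.2 ± 0.0383 FPKM (SD, n = 2) in ABC1 and from 6.17 ± 0.218 to 47.6 ± 0.698 FPKM (SD, n = 2) in HCC4006. Its log2FCs were 2.55 (SE 0.12, adjusted p = 0.00428) and 2.76 (SE 0.09, adjusted p = 1.3e-04). *SLC3A2*, the heavy chain that partners SLC7A11 and SLC7A5, rose by 0.90 in ABC1 (adjusted p = 0.0431) and by 0.98 in HCC4006 (adjusted p = 0.00118). *PSAT1*, an enzyme of serine synthesis, rose by 0.98 in ABC1 (adjusted p = 0.0443) and by 0.64 in HCC4006 (adjusted p = 0.00951).

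In HCC4006 the glycine transporter gene *SLC6A9* rose from 5.78 ± 0.463 to 14.8 ± 2.69 FPKM (SD, n = 2), a log2FC of 1.21 (SE 0.15, adjusted p = 0.00634). *CTH*, which encodes the enzyme that makes cysteine from cystathionine, rose there from 9.36 ± 0.190 to 22.8 ± 1.09 FPKM (SD, n = 2), a log2FC of 1.20 (SE 0.09, adjusted p = 0.00187). *SLC7A5*, the light chain of a leucine transporter, rose there by 1.02 on the log2 scale (SE 0.07, adjusted p = 0.00126). In ABC1 these 3 had log2FCs of 0.63, 0.28 and 0.55 and were not called. *ALDH18A1*, which encodes an enzyme of proline synthesis, was the gene that fell in HCC4006, with a log2FC of -0.41 (adjusted p = 0.0237), and it was not called without any single library of that line. The number called higher in ABC1 was 8 with median-of-ratios scaling, 14 in the model of all 8 libraries, 0 without the expression minimum and 1 without any single ABC1 library. In HCC4006 it was 7 without the expression minimum, 12 without vehicle replicate 0, 9 without vehicle replicate 1, and 14 without either DEM library.

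Of the 16 other stress targets, 14 were tested in ABC1 and 3 called higher, and 15 were tested in HCC4006, where 8 were called higher and 1 lower. Their medians were 0.63 and 0.38 on the log2 scale. Of all genes tested, 0.768% were called higher in ABC1, and 8.45% were called higher and 10.7% lower in HCC4006. *SQSTM1*, the autophagy receptor p62 and also an NRF2 target, rose from 191 ± 11.6 to 627 ± 24.9 FPKM (SD, n = 2) in ABC1, a log2FC of 1.71 (SE 0.13, adjusted p = 0.0158). In HCC4006 it rose from 945 ± 28.4 to 2258 ± 22.3 FPKM (SD, n = 2), a log2FC of 1.26 (SE 0.06, adjusted p = 5.2e-04). *VEGFA*, the angiogenic growth factor, rose by 1.53 in ABC1 (SE 0.12, adjusted p = 0.0153) and by 0.35 in HCC4006 (SE 0.09, adjusted p = 0.0489). *PCK2*, a mitochondrial enzyme that makes phosphoenolpyruvate, rose by 1.46 in ABC1 (SE 0.14, adjusted p = 0.0221) and by 0.59 in HCC4006 (SE 0.13, adjusted p = 0.0324). *MAP1LC3B*, a component of the autophagosome, rose by 0.83 (adjusted p = 0.00391) and *KLHL24* by 0.62 (adjusted p = 0.0359) in HCC4006. *BBC3*, which encodes the cell death protein PUMA, fell in HCC4006 from 7.61 ± 1.34 to 2.31 ± 0.561 FPKM (SD, n = 2), a log2FC of -1.38 (SE 0.18, adjusted p = 0.00792). The count in ABC1 was 9 in the model of all 8 libraries and 0 without the expression minimum. It was 0 without vehicle replicate 0 or vehicle replicate 1, 4 without DEM replicate 0 and 2 without DEM replicate 1. In HCC4006 the count was 0 without the expression minimum, 5 in the model of all 8 libraries, 5 without vehicle replicate 0 or DEM replicate 1, 3 without vehicle replicate 1 and 2 without DEM replicate 0.

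The other branches of the unfolded protein response, which run through XBP1 and ATF6 and induce chaperones of the endoplasmic reticulum, were followed with 14 genes. In ABC1 0 of them were called by limma, and 2 had an unadjusted p under 0.05, beside 2771 of all 12635 genes. The model of all 8 libraries called 1 higher there. In HCC4006 5 were called higher and 1 lower, where 8.45% of all genes tested were called higher and 10.7% lower. The medians of the 14 genes were 0.17 and 0.12 on the log2 scale. In HCC4006 the chaperone gene *DNAJB9* rose by 0.94 (SE 0.10, adjusted p = 0.00433) and *HERPUD1*, which acts in degradation of proteins of the endoplasmic reticulum, by 0.76 (SE 0.10, adjusted p = 0.00856). *DNAJC3*, an inhibitor of an eIF2 kinase, rose by 0.56 (adjusted p = 0.0121), *HYOU1* by 0.47 (adjusted p = 0.0154) and *XBP1* itself by 0.43 (adjusted p = 0.0300). *CALR*, the chaperone calreticulin, fell with a log2FC of -0.26 (adjusted p = 0.0312) and was likewise not called without any single library. The main chaperone gene *HSPA5* was not called, with log2FCs of 0.14 in ABC1 and 0.17 in HCC4006. Without single libraries of HCC4006, 2 of the 14 were called higher in 3 of the fits and 3 in the fit without DEM replicate 0.

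**Figure D4:**
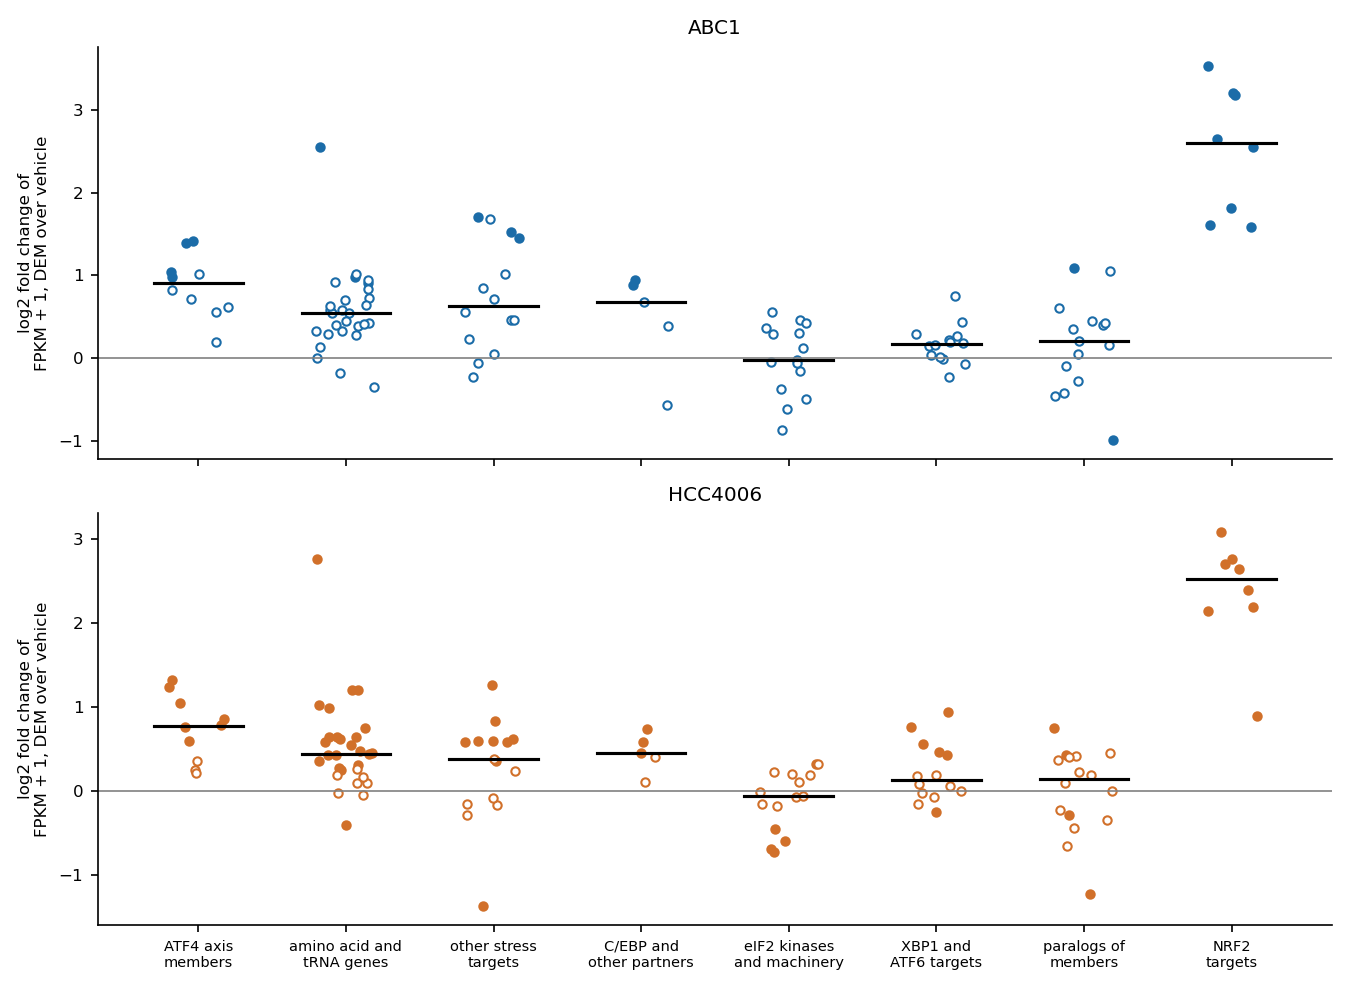
Log2 fold change of FPKM + 1 with DEM over vehicle (vertical axis) for the tested genes of each group (horizontal axis) in ABC1 (top) and HCC4006 (bottom). Filled points passed an adjusted p of 0.05, open points did not and black lines are medians, which were 0.90 and 0.77 for the 10 genes and 2.60 and 2.52 for the 8 NRF2 targets. *SLC7A11* is drawn in both the amino acid group and the NRF2 group.

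Among 18 relatives of the 10 genes, 15 were tested in ABC1, where 1 was called higher and 1 lower, and 16 in HCC4006, where 2 were called higher and 2 lower. Of all genes tested, 0.768% were called higher and 0.435% lower in ABC1, and 8.45% and 10.7% in HCC4006. The counts of relatives called in HCC4006 were thus near the background. *CREM*, a cyclic AMP responsive factor, rose from 16.1 ± 2.94 to 35.1 ± 1.81 FPKM (SD, n = 2) in ABC1, a log2FC of 1.09 (SE 0.16, adjusted p = 0.0482), and by 0.75 in HCC4006 (SE 0.08, adjusted p = 0.00383). *BATF*, a leucine zipper factor best known in lymphocytes, fell in ABC1 from 64.2 ± 5.88 to 31.6 ± 0.185 FPKM (SD, n = 2), a log2FC of -0.995 (SE 0.13, adjusted p = 0.0422). Its log2FC in HCC4006 was 0.36 (SE 0.16, adjusted p = 0.166). In HCC4006 *ATF2* rose by 0.42 (adjusted p = 0.0489), and *TRIB2* and *ATF1* had log2FCs of -1.24 (adjusted p = 0.0493) and -0.29 (adjusted p = 0.0499). *TRIB2*, a relative of *TRIB3*, was thus called lower in HCC4006, whereas *TRIB1*, *CHAC2*, *SESN1*, *SESN3* and *PPP1R15B* were not called in either line. With any single library of ABC1 left out, neither *CREM* nor *BATF* was called there, the model of all 8 libraries called 4 higher and 2 lower in ABC1, and with pseudocounts of 0.1 or 0.5 neither *TRIB2* nor *ATF1* was called. In HCC4006 the 2 called lower became 0 without vehicle replicate 0, vehicle replicate 1 or DEM replicate 1 and 1 without DEM replicate 0, and the 2 called higher became 1 without vehicle replicate 1 or DEM replicate 0.

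For the 5 genes with a log2FC of at least 1 in a line, the genes with the most similar pattern were sought among 13682 genes, by the root mean square difference of log2(FPKM + 1) over the 8 libraries after subtraction of each line's mean. *TRIB3* was most like the divergent transcript *GOLPH3-DT* (difference 0.0694), *SLC3A2* (0.0776) and the small GTPase gene *RIT1* (0.0882). *ASNS* was most like *PSAT1* (0.0695), *RNF24* (0.0719) and *CREM* (0.0811). *DDIT3* was most like *CLEC7A* (0.108), the peptide hormone gene *ADM2* (0.118) and *SPSB1* (0.134). *CHAC1* was most like *PCK2* (0.110), *PPM1M* (0.117) and *PHF1* (0.117). *ATF3* was most like the ferritin gene *FTL* (0.110), the unnamed gene ENSG00000267105 (0.134) and *RIT1* (0.141). The measure follows the changes in each line and not the level of a gene, so these genes share a pattern over 8 libraries and nothing more was read from it.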

How the data were processed

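RNA of ABC1 and HCC4006 cells was sequenced after polyA selection with a strand-specific kit. The authors deposited FPKM values per gene and library. The methods name TopHat and Cufflinks on hg19, whereas the submitters' processing notes list cutadapt 1.15, STAR 2.5.3a, SAMtools, HTSeq, Cuffnorm and DESeq2, and which made each file is not given in the sources used here. Tables with the authors' own fold changes and p-values were not used, and the base mean that they deposited as a signal of scaled counts served only to show depth. DEM was compared with vehicle using limma 3.58.1 in R 4.3.3 on log2(FPKM + 1), with the variance prior following mean expression, for genes averaging 1 FPKM or more in the libraries fitted, with Benjamini-Hochberg adjustment and a threshold of 0.05, after tests on simulated data. The pseudocount of 1 makes fold changes of low genes smaller. Differences between lines were fitted over all 8 libraries. The 10 genes and the lists were chosen with earlier results of these data known. From each list, up to 4 called genes per line with the largest absolute change were named. Others named (*EIF2S2*, *ALDH18A1*, *CEBPD*, *JDP2*, *XBP1*, *CALR*, *HSPA5*, *MARS1*, the kinases and relatives) were chosen after their values were seen. Nearest patterns were limited to 3 genes each, sought outside the 10 genes. Alternatives were pseudocounts of 0.1 and 0.5, no minimum, a minimum of 5 FPKM, no trend, median-of-ratios scaling, all 8 libraries, the replicate number as a block and each library left out. Gene positions are from GENCODE on GRCh37, and 55534 of 57815 identifiers had a symbol.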

Additional observations from a re-analysis of the deposited data

Results flagged for a closer look

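Among the genes of the lists, the response to DEM was called different between the lines for 2, *CTH* and *VEGFA*. *CTH* responded more in HCC4006, by 0.92 on the log2 scale (standard error, SE, 0.13, adjusted p = 0.0357 by limma for the interaction), from 40.6 and 42.7 to 51.2 and 49.9 FPKM in ABC1 and from 9.50 and 9.23 to 22.0 and 23.5 FPKM in HCC4006. *VEGFA* responded less in HCC4006, with a difference of -1.18 (SE 0.14, adjusted p = 0.0232 by limma), from 53.8 and 55.5 to 160 and 159 FPKM in ABC1 and from 73.6 and 66.2 to 94.95 and 84.0 FPKM in HCC4006. For *BATF* the DEM values were the lower ones in ABC1 and the higher ones in HCC4006, where the change was not called. It went from 60.1 and 68.4 to 31.5 and 31.8 FPKM in ABC1 and from 47.8 and 43.5 to 70.4 and 49.5 FPKM in HCC4006, and the difference of 1.36 on the log2 scale (SE 0.23) did not pass (adjusted p = 0.0638 by limma).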

How the results depend on the processing

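The direction of each of the 10 genes' responses in each line held in all alternatives run. The number called higher in ABC1, 4 as reported, was 0 without the expression minimum, 1 without the mean-variance trend, 8 in the model of all 8 libraries and 9 with the replicate number as a block, and 0 to 2 without single libraries. In HCC4006 the 7 became 3 without the expression minimum and 5 to 7 without single libraries. The cause of these changes was not tested, and the share of all genes called in each alternative is not given. The labels give same-numbered libraries a common number, and whether they were also handled together is not stated. Their deviations correlated with r = 0.258 over 12635 genes in ABC1 and 0.0544 over 13542 genes in HCC4006. A shared effect of the number, which the reported fits leave out, was not tested. With this block 7 genes were called in HCC4006 and 7 between the vehicle groups. The counts of 0 called lower and of 0 that differed in response held throughout. Between the lines, the difference in response changed sign on leaving out single libraries for *ATF5* (-0.041 to 0.16), *DDIT3* (-0.36 to 0.041), *TRIB3* (-0.024 to 0.16) and *PPP1R15A* (-0.28 to 0.016), as did the vehicle difference of *PPP1R15A* (-0.010 to 0.28) and *DDIT4* (-0.050 to 0.60), none of them called in the reported fit. For the lists in ABC1, the block called 23 amino acid genes and 10 other stress targets higher, and 5 eIF2 genes higher and 4 lower. Without the expression minimum 0 genes of any list were called in ABC1, and in HCC4006 7 amino acid genes, 7 NRF2 targets, 1 relative and 0 genes of the other lists were called higher.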
